A study of Mus musculus with 27 samples.

Results

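The genes described here are 10 neural-type markers and neurotrophin signalling genes that hepatic stellate cells (HSCs) are known to express or that belong to the neurotrophin pathway. They were taken by name, with earlier results of these data known, and are 10 of the 53379 gene IDs in the count table. They comprise the ligands Ntf3 and Bdnf, the receptors Ngfr, Ntrk2 and Ntrk3, the intermediate filament genes Gfap and Nes, the microtubule-associated protein gene Mapt, and the adhesion molecule genes Ntm and Ncam1.

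HSCs are the retinoid-storing pericytes of the liver sinusoid, and on injury they turn into matrix-producing myofibroblasts. They carry many gene products first described in neurons and glia, which is why Gfap, Nes, Ncam1 and Ngfr have long served as stellate cell markers. Neurotrophins are secreted growth factors that are made as larger precursors and cut by proprotein convertases. The mature ligands act on receptor tyrosine kinases of the Trk family, with Bdnf and neurotrophin-4 binding the Ntrk2 product TrkB and neurotrophin-3 binding the Ntrk3 product TrkC. All of them, and their precursors with the co-receptor sortilin, also bind p75, the product of Ngfr, a death-domain receptor of the TNF receptor superfamily.

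The study measured mRNA by RNA sequencing in HSCs of male Balb/c mice with and without carbon tetrachloride (CCl4) injury, to follow stellate cell activation from a first to a repeated liver injury. CCl4 is a hepatotoxin that hepatocytes convert to a radical. HSCs were taken from the perfused liver by sorting on ultraviolet positivity, the autofluorescence of stored retinoids, and were collected without culture, so that only cells positive in the ultraviolet channel were collected. The methods describe each repeat as an individual experiment.

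The healthy group (n = 4) held non-treated mice of 10 to 12 weeks. The acute groups held mice of 10 to 12 weeks that received 1 intraperitoneal injection of CCl4 in mineral oil at 0.5 µL per g body weight and were analysed at 24 h (3 libraries), at 72 h (4 libraries) or at 7 d (4 libraries). The chronic groups held mice that were 8 to 10 weeks old and received 8 injections of the same dose, semi-weekly over 4 weeks, with analysis 24 h, 72 h or 14 d after the course (n = 4 each). The healthy mice received no mineral oil, and no age-matched controls of the chronic course were used here, so CCl4, the injections and the age at analysis cannot be told apart in the chronic comparisons.

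The 27 libraries held 6.31 to 13.1 M counts each (M, mega). Of these, 8 libraries had under 9 M counts (at most 7.58 M, against at least 10.8 M in the rest), namely chronic 24 h replicates 1 and 2, chronic 72 h replicates 1 and 2, and the chronic 14 d group as a whole. Levels are given as CPM, counts relative to the library total after TMM scaling (trimmed mean of M-values), and changes as log2 fold changes with their standard error (SE). A gene was called higher or lower when the adjusted p (Benjamini-Hochberg, edgeR quasi-likelihood test over 18758 genes) was below 0.05 and the change was more than 2-fold. All 10 genes passed the filter on low counts. Because these are bulk RNA measurements, fewer cells of a type and less RNA per cell cannot be told apart.

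The libraries expressed the markers of stellate cells. All 12 genes of a stellate cell marker list (among them Lrat, Reln, Des and Colec11) passed the filter, and their summed level was 33200 to 51900 CPM in healthy mice and 15400 to 18400 CPM in chronic 24 h. Schwann cells and neurons, the other cells in which these genes are well known, had few counts. Of 14 Schwann cell and peripheral glia markers, 7 passed the filter. Sox10 had 5 counts in 1 healthy library and none elsewhere, and Cdh19 had 1 count in all. The list without Egr2, which had a mean of 709 CPM in healthy mice, summed to 21.5 to 31.9 CPM in healthy and 11.4 to 41.5 CPM in chronic 24 h libraries. At acute 7 d it summed to 25.4 to 48.2 CPM. Of the 7 tested in the full list, Egr2 included, 2 were called higher at acute 7 d and 0 lower, where 9.23% of all genes were called higher. From healthy to acute 7 d the means of Mbp (1.3 to 11 CPM) and Fabp7 (0.19 to 6.49 CPM) rose, and those of Mag (6.28 to 3.86 CPM) and Prx (11.2 to 8.74 CPM) fell. Of 12 neuron markers 4 passed the filter, and the list summed to 35.7 to 44.2 CPM in healthy and 6.05 to 17.7 CPM in chronic 24 h libraries. Elavl4, Uchl1 and Th never exceeded 3 counts.

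**Figure D1:**
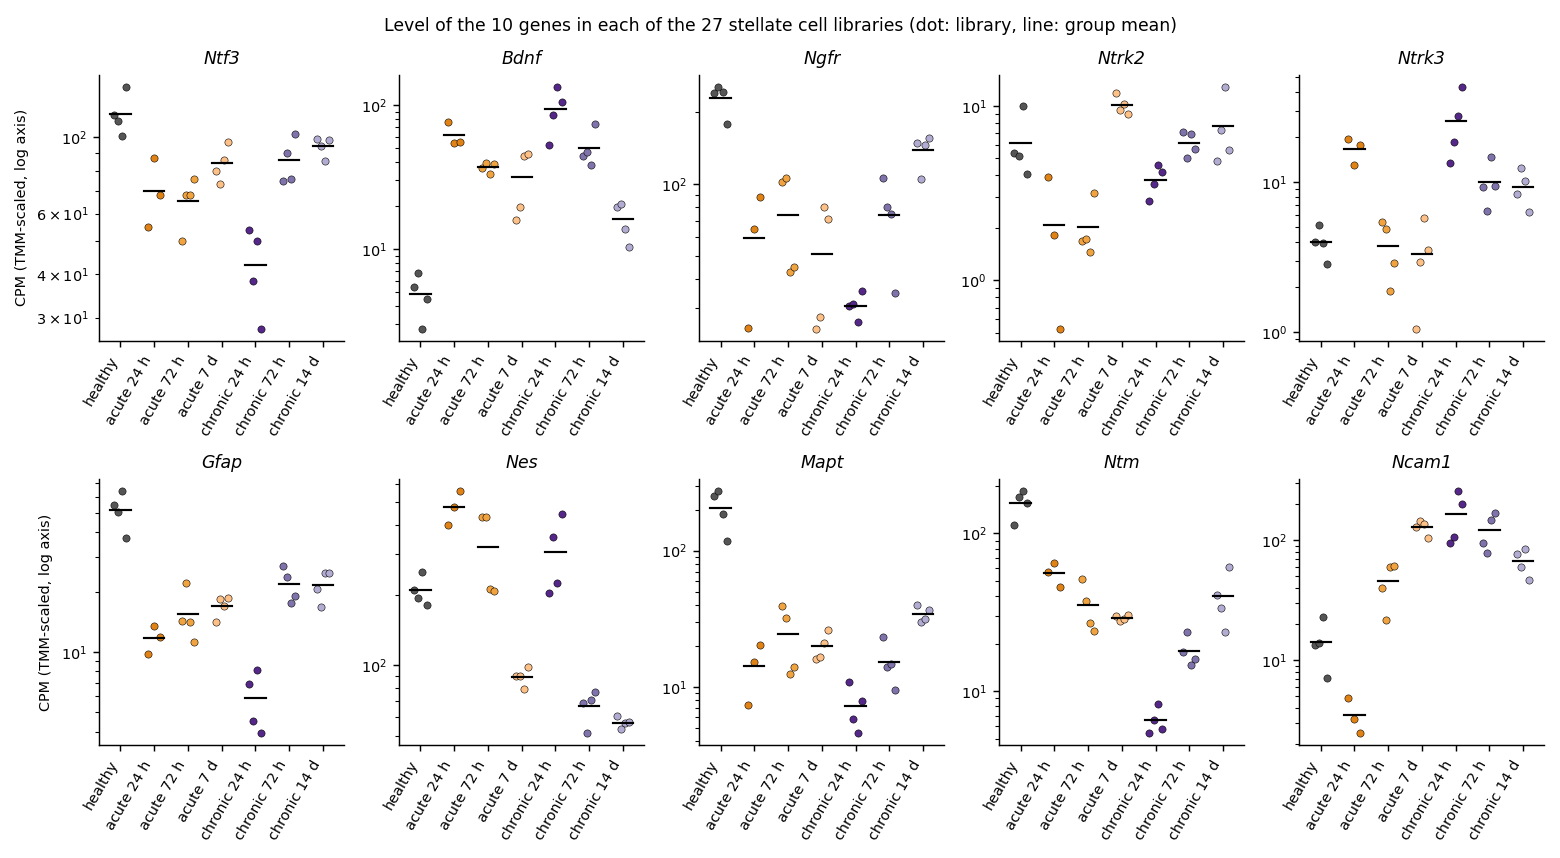
TMM-scaled CPM on log axes of the 10 genes in 27 libraries, by group, with 1 dot per library and a line at the group mean. Mapt, Ntm, Gfap and Ngfr had their highest mean in healthy mice and their lowest in chronic 24 h, Bdnf rose in all 6 injured groups, and Ncam1 fell at acute 24 h and rose in the 5 other injured groups.

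Injury changed most of the 10 genes, in both directions. The percentages beside the counts are shares of all 18758 genes tested. At acute 24 h, 9 of the 10 genes were called against healthy, 3 higher and 6 lower, where 22.0% of all genes were called (9.41% higher and 12.5% lower). It was 7 genes at acute 72 h, 2 higher and 5 lower, against 12.6% (8.23% and 4.33%). Again 7 were called at acute 7 d, 2 higher and 5 lower, against 14.9% (9.23% and 5.64%). At chronic 24 h 8 were called, 3 higher and 5 lower, against 19.3% (11.2% and 8.11%). At chronic 72 h it was also 8, 3 higher and 5 lower, against 12.1% (7.88% and 4.20%). At chronic 14 d 6 were called, 2 higher and 4 lower, against 5.72% (4.55% and 1.17%). In that comparison all chronic 14 d libraries and no healthy ones were under 9 M counts, so that depth class differed along with the injury. The libraries of the injured group did not overlap the healthy ones for 10 at acute 24 h (39.8% of all genes), 7 at acute 72 h (23.6% of all genes), 8 at acute 7 d (24.6% of all genes), 8 at chronic 24 h (26.4% of all genes), 8 at chronic 72 h (21.1% of all genes) and 9 at chronic 14 d (13.3% of all genes) of the 10 genes. The median absolute log2 fold change of the 10 genes was 3.01 in chronic 24 h and 2.0 in acute 24 h, where it was 0.60 and 0.67 over all genes tested. The signed median over all genes lay within 0.03 of 0 in each of these comparisons but acute 24 h against healthy, where it was -0.12. The 6 comparisons share the 4 healthy libraries.

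Bdnf was called higher in 6 of 6 injured groups, and Gfap, Mapt and Ntm were called lower in 6 of 6. Ngfr was called lower in 5 of 6, all but chronic 14 d. Ncam1 was called in 6 of 6, lower at acute 24 h and higher in the rest. Nes was higher at acute 24 h and lower at acute 7 d, chronic 72 h and chronic 14 d. Ntrk3 was higher in 3 groups (acute 24 h, chronic 24 h and chronic 72 h), Ntrk2 lower in 2 (acute 24 h and 72 h), and Ntf3 lower in 1 (chronic 24 h).

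**Figure D2:**
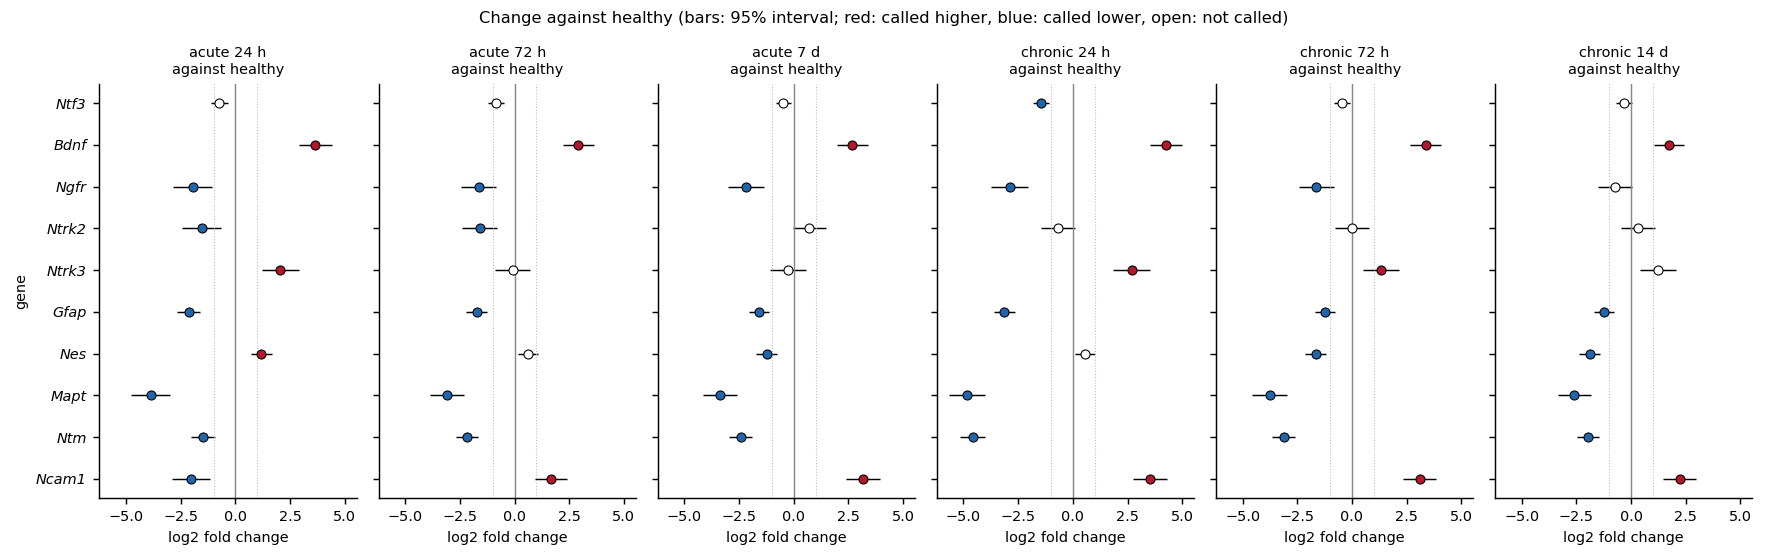
Log2 fold change of each of the 10 genes in the 6 injured groups against healthy, with 95% intervals from the model. Filled points were called (red higher, blue lower) and open points were not, and the dotted lines mark a 2-fold change. The largest fall was that of Mapt in chronic 24 h (log2 fold change -4.84) and the largest rise that of Bdnf in the same group (4.27).

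Levels of different genes can be compared only per length, here as CPM per kilobase of annotated exon. In healthy HSCs the most abundant transcripts per kilobase were Ntf3 at 68.2 ± 9.56 and Ngfr at 66.7 ± 10.2 (SD, n = 4). Nes followed at 32.7 ± 4.79, Mapt at 27.5 ± 9.28, Ntm at 19.4 ± 3.93 and Gfap at 12.2 ± 2.64. Ncam1 reached 1.65 ± 0.742, Bdnf 0.786 ± 0.273, Ntrk2 0.318 ± 0.135 and Ntrk3 0.132 ± 0.0313. Healthy HSCs held many transcripts for a neurotrophin and for p75 and few for either Trk receptor. In chronic 24 h the order had changed to Nes at 47.9 ± 17.6, Ntf3 at 24.8 ± 6.87, Ncam1 at 19.0 ± 9.03 and Bdnf at 15.1 ± 5.45, while Mapt had come down to 0.961 ± 0.362 and Ntm to 0.807 ± 0.162. The exon lengths of Ntrk2 (19.29 kb) and Ntrk3 (30.17 kb) join all annotated isoforms, so that their level per kilobase is lower than it would be over 1 shorter transcript.

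The promoter sequence is given for the genes that were called in the most comparisons and for which RefSeq lists a start in the table used (build GRCm38.p6). Windows of 250 bases before the start were found for 7 of the 10 genes, 15 windows in all. They were searched on both strands for AP-1 (TGANTCA), TEAD (GGAATG), CRE (TGACGTCA), GC box (GGGCGG) and TATA box (TATAAA) letters, and no matches in the windows of these genes overlapped. Among 32851 windows of the same length, 6.75% held the AP-1 letters, 12.6% TEAD, 1.55% CRE, 32.7% the GC box and 12.4% the TATA box. The windows of 3 genes that were lower than healthy at acute 7 d, chronic 72 h and chronic 14 d (Ntm, Gfap and Nes) are printed beside that of 1 that was higher (Bdnf). Each is printed 5′ to 3′ on the strand of the gene, with motif matches in capitals, and was trimmed to bases that lie in no exon of the GENCODE M21 annotation.
Ntm, window 1 (chr9:29413453-29413702, minus strand): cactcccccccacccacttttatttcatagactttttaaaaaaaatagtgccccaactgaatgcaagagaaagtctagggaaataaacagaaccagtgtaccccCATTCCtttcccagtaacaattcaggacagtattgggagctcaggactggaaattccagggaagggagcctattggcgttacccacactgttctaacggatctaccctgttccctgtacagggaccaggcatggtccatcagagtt
Ntm, window 2 (chr9:29412686-29412935, minus strand): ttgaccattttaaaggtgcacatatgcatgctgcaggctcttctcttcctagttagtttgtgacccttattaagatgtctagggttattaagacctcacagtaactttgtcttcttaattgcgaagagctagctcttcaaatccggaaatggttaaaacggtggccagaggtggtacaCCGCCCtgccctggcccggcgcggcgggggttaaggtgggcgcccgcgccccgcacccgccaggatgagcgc
Gfap (chr11:102897201-102897450, minus strand): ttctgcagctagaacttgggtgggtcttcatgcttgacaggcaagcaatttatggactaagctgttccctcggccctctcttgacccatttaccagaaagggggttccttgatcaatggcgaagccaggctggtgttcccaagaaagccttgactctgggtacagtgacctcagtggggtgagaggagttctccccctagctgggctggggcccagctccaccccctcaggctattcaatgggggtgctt
Nes (chr3:87970843-87971077, plus strand): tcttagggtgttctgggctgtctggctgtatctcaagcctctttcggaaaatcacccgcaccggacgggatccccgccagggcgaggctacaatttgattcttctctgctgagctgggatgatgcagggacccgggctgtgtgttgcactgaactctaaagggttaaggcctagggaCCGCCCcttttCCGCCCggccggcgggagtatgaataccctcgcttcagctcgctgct
Bdnf, window 2 (chr2:109676782-109677031, plus strand): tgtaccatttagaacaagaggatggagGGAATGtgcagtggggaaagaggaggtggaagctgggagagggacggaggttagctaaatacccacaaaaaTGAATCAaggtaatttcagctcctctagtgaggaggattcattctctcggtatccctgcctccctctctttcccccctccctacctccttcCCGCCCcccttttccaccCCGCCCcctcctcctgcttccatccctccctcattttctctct

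The capitals in Ntm mark a TEAD match in window 1 and a GC box in window 2, and those in Nes a pair of GC boxes. The Gfap window held none of the motifs. The 7 Bdnf windows stand for alternative first exons. The printed one was the only window of any of the genes with AP-1 letters. It also held a TEAD match and a pair of GC boxes. Among the Bdnf windows not printed, window 4 held a GC box and window 7 a TEAD match. Windows 1, 3, 5 and 6 held none of the motifs. Both Ntm windows, the Gfap window and the printed Bdnf window lie within the annotated span of their gene, because GENCODE also lists a start further upstream. The single Ngfr window held 4 GC box matches. These are matches of letters. The counts do not say which start was used.

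Of the 2 ligand genes among the 10, Bdnf was higher in all injured groups. Bdnf encodes brain-derived neurotrophic factor and lies on chromosome 2 (ENSMUSG00000048482, GRCm38, 109674700 to 109727007, plus strand). Its levels in the 4 healthy libraries were 5.44, 6.83, 2.78 and 4.51 CPM. After a single injection they were 75.7, 54.6 and 55.4 CPM at 24 h, 36.7, 39.5, 33 and 39.2 CPM at 72 h, and 15.9, 19.7, 44.3 and 45.6 CPM at 7 d. After the chronic course they were 52.9, 85.4, 134 and 105 CPM at 24 h, 43.9, 47.1, 38.2 and 73.2 CPM at 72 h, and 19.6, 20.4, 13.8 and 10.3 CPM at 14 d. Every injured library was above every healthy one, and within acute 7 d replicates 1 and 2 were lower than replicates 3 and 4.

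In edgeR's quasi-likelihood test the log2 fold change of Bdnf against healthy was 3.66 (SE 0.38, adjusted p = 2.15e-07) at acute 24 h and 4.27 (SE 0.38, adjusted p = 1.52e-08) at chronic 24 h, a 19.3-fold difference of means. It came down with time, to 2.92 and 2.68 at acute 72 h and 7 d, and to 3.37 and 1.71 at chronic 72 h and 14 d, and was called in each. Chronic 14 d was 3.28-fold above healthy (adjusted p = 0.00292) and still lower than chronic 24 h, by 2.55 on the log2 scale (SE 0.35, adjusted p = 1.30e-05). Of the 6 steps between groups next to each other in the order of its means, only that from healthy to chronic 14 d was called. Bdnf shares 896 exon bases with an antisense gene, Gm45346, which had no count in any library.

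Ntf3, which encodes neurotrophin-3, was the highest of the 10 genes per kilobase in healthy HSCs (ENSMUSG00000049107, chromosome 6, 126101412 to 126166910, minus strand). Its levels were 116, 111, 101 and 140 CPM in healthy and 53.8, 38.3, 50 and 27.8 CPM in chronic 24 h libraries, without overlap. It lay between 50.1 and 102 CPM in the libraries of the 4 groups acute 24 h, acute 72 h, acute 7 d and chronic 72 h, and between 85.0 and 98.7 CPM at chronic 14 d. The fall was called only at chronic 24 h (log2 fold change -1.46, SE 0.19, edgeR adjusted p = 2.41e-06). At acute 24 h and 72 h the log2 fold changes of -0.74 (adjusted p = 0.00572) and -0.84 (adjusted p = 0.00184) passed the edgeR test but stayed under 2-fold. By chronic 14 d Ntf3 had risen 2.22-fold from chronic 24 h (adjusted p = 9.44e-05), to 80.5% of the healthy mean (log2 difference from healthy -0.31, 95% interval -0.67 to 0.04).

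A further neurotrophin ligand gene, Ntf5, which encodes neurotrophin-4, had no count in any of the 4 healthy libraries. It had 9 to 17 counts in the acute 24 h libraries and 15.6, 12.9, 12.5 and 13.6 CPM in chronic 24 h. Against a floor of 3 counts per library (0.269 CPM in healthy), its mean of 13.7 CPM in chronic 24 h was at least 50.7-fold higher. The corresponding bound was 4.13-fold at acute 24 h, 20.8-fold at acute 72 h, 31.1-fold at acute 7 d, 26.8-fold at chronic 72 h and 14.6-fold at chronic 14 d, and the gene was called higher in all 6 comparisons. At chronic 72 h its libraries stood at 14.3, 10.4, 2.02 and 2.19 CPM, the 2 of lower depth above the 2 of higher depth.

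**Figure D3:**
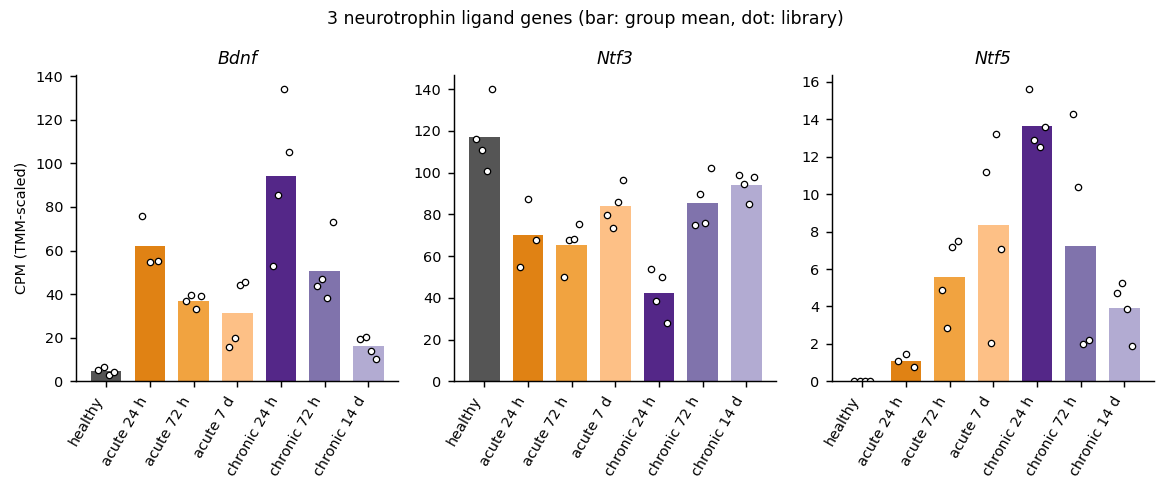
CPM of 3 neurotrophin ligand genes, with bars at the group mean from 0 and 1 dot per library. Bdnf and Ntf5 were higher in all injured groups, and Ntf3 was lowest in chronic 24 h.

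Of the receptors, Ngfr fell after injury. Ngfr encodes p75 (ENSMUSG00000000120, chromosome 11, 95568818 to 95587735, minus strand). The healthy libraries stood at 241, 256, 243 and 178 CPM. The acute ones stood at 24.9, 64.8 and 87.8 CPM at 24 h, 102, 106, 42.8 and 44.8 CPM at 72 h and 24.6, 27.7, 79.7 and 71 CPM at 7 d. The chronic ones stood at 30.7, 31.2, 26.2 and 35.4 CPM at 24 h, 106, 80, 74.8 and 34.8 CPM at 72 h and 148, 105, 145 and 156 CPM at 14 d. No injured library reached the lowest healthy one, and chronic 24 h had the lowest mean and the narrowest range.

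The log2 fold change of Ngfr was -1.96 (SE 0.45, edgeR adjusted p = 0.00175) at acute 24 h, -2.18 (SE 0.41, adjusted p = 4.70e-04) at acute 7 d and -2.89 (SE 0.42, adjusted p = 1.45e-05) at chronic 24 h. Between chronic 24 h and chronic 14 d it rose 4.47-fold (log2 2.16, SE 0.41, edgeR adjusted p = 5.71e-04), to 60.1% of the healthy mean. At that time the difference from healthy was not called (log2 -0.73, 95% interval -1.51 to 0.04, adjusted p = 0.278), although the 2 groups did not overlap. In acute 7 d, 7 d after the single injection, Ngfr was at 22.1% of healthy, and it did not differ from acute 24 h beyond the spread (log2 -0.22, 95% interval -1.06 to 0.61). None of the 6 steps between neighbouring groups was called.

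Ntrk3, which encodes TrkC, was raised 24 h after CCl4 (ENSMUSG00000059146, chromosome 7, 78175959 to 78738012, minus strand). Its healthy libraries had 3.99, 5.17, 3.96 and 2.86 CPM. The values were 19.3, 13 and 17.6 CPM at acute 24 h, 5.4, 4.85, 1.87 and 2.87 CPM at acute 72 h and 1.05, 2.95, 5.8 and 3.53 CPM at acute 7 d. They were 13.5, 18.4, 27.6 and 43.3 CPM at chronic 24 h, 9.33, 6.43, 14.6 and 9.48 CPM at chronic 72 h and 8.37, 12.5, 10.2 and 6.32 CPM at chronic 14 d. After the single injection the libraries overlapped the healthy ones at 72 h and 7 d, whereas after the chronic course all 12 libraries stayed above all 4 healthy ones.

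The log2 fold change of Ntrk3 was 2.06 (SE 0.44, edgeR adjusted p = 8.11e-04) at acute 24 h and 2.69 (SE 0.43, adjusted p = 3.70e-05) at chronic 24 h. At chronic 72 h it was 1.32 (SE 0.41, adjusted p = 0.0261), a call that was lost without healthy replicate 1 (adjusted p = 0.0531), healthy replicate 3 (0.0578), healthy replicate 4 (0.0608) or chronic 72 h replicate 3 (0.0793). At chronic 14 d it was 1.23 (95% interval 0.41 to 2.04, adjusted p = 0.0675), not called, although the libraries did not overlap with healthy. It was called there in DESeq2 (1.28, adjusted p = 0.0256), with library size alone (1.40, 0.0317), in the 2-group fit (1.30, 0.0310), with depth as a term (2.11, 0.0225) and without chronic 14 d replicate 4 (1.43, 0.0483). From acute 24 h to acute 7 d Ntrk3 fell by 2.32 on the log2 scale (SE 0.44, edgeR adjusted p = 2.25e-04).

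Ntrk2, which encodes TrkB, was low throughout (ENSMUSG00000055254, chromosome 13, 58806569 to 59133970, plus strand). Its healthy libraries had 5.35, 5.17, 9.94 and 4.07 CPM. It had 3.92, 1.82 and 0.527 CPM at acute 24 h, 1.68, 1.73, 1.46 and 3.18 CPM at acute 72 h, and 11.9, 9.43, 10.2 and 9.04 CPM at acute 7 d. In the 12 chronic libraries it ranged from 2.85 to 12.9 CPM. Ntrk2 was thus low early after the single injection and at acute 7 d above 3 of the 4 healthy libraries. The fall was called at acute 72 h (log2 -1.60, SE 0.41, edgeR adjusted p = 0.00642) and at acute 24 h (log2 -1.55, SE 0.45, adjusted p = 0.00994). The call at acute 24 h was lost without acute 24 h replicate 3 (log2 -1.10, adjusted p = 0.0562) and in a fit of these 2 groups alone (log2 -1.47, adjusted p = 0.113). From acute 24 h to acute 7 d Ntrk2 rose 4.84-fold (adjusted p = 4.22e-04).

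The rest of the ligand, receptor and processing genes moved in both directions. Beside the 10 genes, a list of 12 such genes held 11 that were tested, of which 4 were higher and 2 lower in chronic 24 h (median log2 fold change 1.19, against -0.03 over all genes). Of all genes, 11.2% were called higher and 8.11% lower there. Ntf5, Sort1, Sorl1 (0.574 to 3.12 CPM) and Nradd were the higher ones. Sort1, which encodes sortilin, had a mean of 4.52 CPM in healthy, 0.732 CPM at acute 24 h (log2 -2.61, edgeR adjusted p = 2.03e-04) and 13.7 CPM at chronic 24 h (log2 1.59, adjusted p = 0.00255). Nradd, a gene related to Ngfr, rose by 1.19 on the log2 scale (adjusted p = 0.00639) at chronic 24 h. The convertase genes Pcsk6 and Pcsk5 fell, Pcsk6 from 213 to 6.64 CPM (log2 -5.00, SE 0.36, adjusted p = 6.82e-10) and Pcsk5 from 20.2 to 9.01 CPM (log2 -1.16, adjusted p = 4.15e-04). Furin, the convertase of most cells, was at 103 CPM in healthy and 200 CPM in chronic 24 h and was not called (adjusted p = 0.365).

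Of 24 receptor partners and adaptors downstream of the receptors 22 were tested, and in chronic 24 h 1 was higher and 1 lower (median log2 fold change -0.05, against -0.03 over all genes, of which 19.3% were called). The lower one was Gab1, a docking adaptor (255 to 122 CPM, log2 -1.07, SE 0.26, edgeR adjusted p = 0.00334). The other was Shc2, which lay under the level set for naming genes and is named because it was the only one (1.11 to 8.39 CPM, log2 2.90, adjusted p = 3.08e-04). Against healthy the list had its most calls at acute 7 d, with 3 higher and 1 lower of the 22, where 14.9% of all genes were called.

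The related GDNF family, glial cell line-derived ligands that bind GFRα receptors, had 9 listed genes, 6 of them tested. In chronic 24 h 3 were higher and 1 lower, where 11.2% of all genes were called higher and 8.11% lower. Of these 4, 3 had a mean log2 CPM under the 3 required for naming and are named after their values were seen. Gdnf had no count in the healthy libraries and 0.600 to 6.64 CPM in chronic 24 h, at least 11.7-fold higher in the mean against a floor of 3 counts per library (edgeR adjusted p = 0.00135). Gfra4 had a mean of 0.702 CPM in healthy and 4.67 CPM in chronic 24 h, and Nrtn, the gene of neurturin, had a mean of 6.69 and 3.19 CPM. Gfra2, the neurturin receptor gene, went from 8.23 to 13.7 CPM in healthy libraries to 61.2 to 138 CPM in chronic 24 h (log2 3.13, SE 0.39, edgeR adjusted p = 2.11e-06), and to 36.2 to 65.4 CPM at acute 24 h (log2 2.29, adjusted p = 1.05e-04). Ret, the gene of the shared signalling receptor, never exceeded 3 counts.

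Gfap, the intermediate filament gene of astrocytes and a classical stellate cell marker, fell in all injured groups (ENSMUSG00000020932, chromosome 11, 102887336 to 102900912, minus strand). The healthy libraries had 54.7, 50.1, 64.2 and 37.4 CPM. The acute ones had 9.79, 13.5 and 11.9 CPM at 24 h, 14.3, 22.2, 14.1 and 11.3 CPM at 72 h and 14.2, 18.5, 17.1 and 18.6 CPM at 7 d. The chronic ones had 6.9, 4.53, 8.16 and 3.92 CPM at 24 h, 27.1, 23.7, 17.6 and 19.2 CPM at 72 h and 20.8, 16.8, 24.8 and 24.8 CPM at 14 d. No injured library overlapped the healthy ones, and the 4 chronic 24 h libraries lay below all others.

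The log2 fold change of Gfap was -2.14 (SE 0.26, edgeR adjusted p = 1.99e-06) at acute 24 h and -3.13 (SE 0.25, adjusted p = 3.65e-09) at chronic 24 h. It recovered in part. Chronic 14 d was 3.71-fold above chronic 24 h (log2 1.89, SE 0.24, edgeR adjusted p = 6.72e-06), but stood at 42.3% of healthy (log2 -1.24, SE 0.23, adjusted p = 0.00131), the same share within the spread as chronic 72 h at 42.4%. The only step between neighbouring groups that was called was that from chronic 72 h to healthy.

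Nes, which encodes nestin, the intermediate filament of neural progenitors, rose early and fell late (ENSMUSG00000004891, chromosome 3, 87971078 to 87980451, plus strand). The healthy libraries had 211, 195, 252 and 182 CPM. The acute ones had 402, 476 and 560 CPM at 24 h, 435, 432, 213 and 209 CPM at 72 h and 90.2, 89.9, 78.9 and 98.3 CPM at 7 d. The chronic ones had 205, 354, 226 and 444 CPM at 24 h, 69.2, 51.1, 70.7 and 76.9 CPM at 72 h and 60.4, 53.2, 56.5 and 57 CPM at 14 d. At acute 24 h all libraries were above the healthy ones, and at acute 7 d, chronic 72 h and chronic 14 d all were below them. Within acute 72 h, replicates 1 and 2 were about double replicates 3 and 4.

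The rise of Nes at acute 24 h was 2.28-fold (log2 1.19, SE 0.26, edgeR adjusted p = 8.72e-04). At chronic 24 h the groups overlapped and the change was not called (log2 0.55, 95% interval 0.08 to 1.02, adjusted p = 0.0841). The late falls were 2.35-fold at acute 7 d (adjusted p = 6.63e-04), 3.13-fold at chronic 72 h (adjusted p = 3.91e-05) and 3.70-fold at chronic 14 d (adjusted p = 3.34e-05). At chronic 14 d Nes was at 27% of healthy, the lowest of its 7 groups. It was the only one of the 10 genes that was called both higher and lower than healthy apart from Ncam1.

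Among the other intermediate filament genes 3 of 8 were tested. Vim, which encodes vimentin, rose from a mean of 349 CPM in healthy to 965 CPM in chronic 24 h (log2 1.47, SE 0.19, edgeR adjusted p = 2.28e-06) and stood at 349 CPM again at chronic 14 d. Des and Synm were not called there (adjusted p = 0.0719 and 0.561). The neurofilament and related genes Nefl, Nefm, Ina and Prph never exceeded 3 counts in any library.

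Mapt, which encodes the axonal microtubule-binding protein tau, had the largest fall of the 10 genes (ENSMUSG00000018411, chromosome 11, 104231390 to 104332090, plus strand). The healthy libraries had 250, 274, 186 and 118 CPM. The acute ones had 7.39, 15.1 and 20.2 CPM at 24 h, 39, 32, 12.4 and 13.9 CPM at 72 h and 15.9, 16.7, 20.9 and 26.3 CPM at 7 d. The chronic ones had 10.8, 5.77, 4.56 and 7.84 CPM at 24 h, 23.1, 14, 14.6 and 9.56 CPM at 72 h and 39.6, 30, 31.6 and 36.4 CPM at 14 d. The highest injured library, at 39.6 CPM, lay below the lowest healthy one, at 118 CPM.

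In edgeR's test Mapt changed by -3.86 on the log2 scale (SE 0.46, adjusted p = 1.06e-06) at acute 24 h and by -4.84 (SE 0.43, adjusted p = 1.45e-08), a 28.7-fold fall, at chronic 24 h. At chronic 14 d it had risen 4.77-fold from chronic 24 h (adjusted p = 1.84e-04) and was at 16.6% of the healthy mean (log2 -2.59, SE 0.38, adjusted p = 1.53e-04), the lowest share of any of the 10 genes at that time. At acute 7 d it was at 9.63%, and did not differ from acute 24 h beyond the spread (log2 0.49, 95% interval -0.29 to 1.27). The fall from healthy was the only called step in its order of 7 group means.

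Of 13 other microtubule-associated protein and stathmin genes 10 were tested. In chronic 24 h 2 were higher and 2 lower, against 11.2% and 8.11% of all genes. Dclk1, a doublecortin-like kinase gene, rose from a range of 0.953 to 4.19 CPM in healthy to 127 to 198 CPM in chronic 24 h (log2 6.14, SE 0.45, edgeR adjusted p = 1.16e-09), and was higher in all 6 injured groups. Map1b rose (6.05 to 22.1 CPM, log2 1.87, adjusted p = 0.00114). Map2, the dendritic counterpart of tau, fell (31.8 to 5.61 CPM, log2 -2.48, adjusted p = 5.37e-06), as did the tubulin-binding Stmn1 (12.6 to 5.35 CPM, log2 -1.24, adjusted p = 0.0361).

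Ntm, which encodes the IgLON adhesion protein neurotrimin, fell in all injured groups, and most in chronic 24 h (ENSMUSG00000059974, chromosome 9, 28994750 to 29963141, minus strand). The healthy libraries had 113, 171, 186 and 157 CPM. The acute ones had 57.3, 64.9 and 46 CPM at 24 h, 51.6, 37.1, 27.1 and 24.2 CPM at 72 h and 29.8, 27.8, 28.5 and 30.3 CPM at 7 d. The chronic ones had 5.4, 6.59, 8.33 and 5.76 CPM at 24 h, 17.6, 23.6, 14.6 and 16.1 CPM at 72 h and 40.5, 33.8, 23.8 and 61.6 CPM at 14 d. The chronic 24 h libraries lay far below all others, and no injured library reached a healthy one.

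The log2 fold change of Ntm was -1.48 (SE 0.28, edgeR adjusted p = 2.25e-04) at acute 24 h and -4.58 (SE 0.29, adjusted p = 9.68e-11) at chronic 24 h, a 23.9-fold fall. Its mean was at 35.8%, 22.3% and 18.5% of healthy in the 3 acute groups in order of time. The step from acute 24 h to acute 7 d was 1.93-fold (log2 -0.95, adjusted p = 0.0064), which passed the test but not the 2-fold minimum. After the chronic course it rose from 4.16% to 11.5% and 25.5% of healthy, with a 6.09-fold rise from chronic 24 h to chronic 14 d (log2 2.61, SE 0.27, adjusted p = 4.76e-07). Ntm had 2 called steps in its order of means, that from chronic 24 h to chronic 72 h and that from acute 24 h to healthy.

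Ncam1 took a course of its own (ENSMUSG00000039542, chromosome 9, 49502136 to 49798925, minus strand). It encodes the neural cell adhesion molecule, an immunoglobulin family protein of neurons, glia and portal and perisinusoidal fibroblasts. The healthy libraries had 13.5, 13.9, 22.7 and 7.11 CPM. The acute ones had 4.81, 3.21 and 2.46 CPM at 24 h, 40.1, 21.8, 60.3 and 60.8 CPM at 72 h and 128, 145, 137 and 105 CPM at 7 d. The chronic ones had 94.1, 106, 257 and 202 CPM at 24 h, 95.3, 77.7, 148 and 167 CPM at 72 h and 76.4, 59.9, 84.8 and 47 CPM at 14 d. All acute 24 h libraries were below all healthy ones, and all acute 7 d and chronic libraries above them, while acute 72 h overlapped the healthy range with 1 library.

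Ncam1 fell by 2.03 on the log2 scale (SE 0.44, edgeR adjusted p = 8.50e-04) at acute 24 h. It then rose to 1.67 (SE 0.37, adjusted p = 0.00212) above healthy at acute 72 h and to 3.17 (SE 0.39, adjusted p = 3.95e-06) at acute 7 d. The step from acute 24 h to acute 7 d was 36.8-fold (log2 5.20, SE 0.50, adjusted p = 5.93e-08). In chronic 24 h Ncam1 was 11.5-fold above healthy (log2 3.52, SE 0.40, adjusted p = 4.61e-07), and in chronic 14 d 4.68-fold (log2 2.22, SE 0.38, adjusted p = 6.13e-04). Ncam1 shares 417 exon bases with the antisense gene Gm11149, which had at most 9 counts in a library against at least 28 for Ncam1.

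Other IgLON, NCAM, L1 and contactin genes were mostly too low to test (7 of 16 were tested). In chronic 24 h 1 was higher and 3 were lower, against 11.2% and 8.11% of all genes. The higher one was Alcam, an adhesion molecule of activated leukocytes and fibroblasts (73.2 to 217 CPM, log2 1.57, SE 0.18, edgeR adjusted p = 6.32e-07), which like Ncam1 was lower at acute 24 h (29.1 CPM, log2 -1.33, adjusted p = 1.92e-05). The 3 lower ones were the IgLON genes Lsamp (20.2 to 1.48 CPM), Iglon5 (4.47 to 0.759 CPM) and Opcml (1.38 to 0.308 CPM), which lay under the level set for naming genes and are named because of their small number.

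The comparison of a repeated with a single injury at 24 h sets cells that had been through 7 earlier injections beside cells that had not. No group was taken just before the last injection. A response to that injection and what the earlier ones left behind can therefore not be told apart. Here 2 of the 10 genes were called, where 13.9% of all genes tested were (10.9% higher and 3.05% lower). The libraries did not overlap for 4 genes, against 33.2% of all genes. Ncam1 was 47.1-fold higher in chronic 24 h (log2 5.56, SE 0.50, edgeR adjusted p = 1.18e-07), and Ntm 8.57-fold lower (log2 -3.10, SE 0.28, adjusted p = 1.18e-07). Neither gene had overlapping library values. Gfap (log2 -1.0, adjusted p = 0.00633) and Ntf3 (log2 -0.72, adjusted p = 0.0101) passed the test but not the 2-fold minimum. Bdnf, Ngfr, Ntrk2, Ntrk3, Nes and Mapt were not called, with 95% intervals such as -0.09 to 1.30 for Bdnf and -1.77 to -0.20 for Mapt. The count rose to 6 without acute 24 h replicate 1, with Ngfr (log2 -1.30), Ntrk2 (1.69), Gfap (-1.11) and Mapt (-1.29) added, and to 4 without chronic 24 h replicate 1, with Gfap (-1.08) and Mapt (-1.23) added.

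At 72 h 4 genes were called between the chronic and the acute injury, against 9.12% of all genes tested (5.11% higher and 4.01% lower). The libraries did not overlap for 5 genes, against 20.8% of all genes. Nes was 4.81-fold lower in chronic 72 h (log2 -2.27, SE 0.25, edgeR adjusted p = 3.05e-06). Ncam1 (log2 1.42, SE 0.37, adjusted p = 0.0106), Ntrk2 (log2 1.61, SE 0.41, adjusted p = 0.00991) and Ntrk3 (log2 1.41, SE 0.41, adjusted p = 0.0230) were higher. The call of Ntrk3 was lost without acute 72 h replicate 3 (adjusted p = 0.0656), acute 72 h replicate 4 (0.0607) or chronic 72 h replicate 3 (0.0701). That of Ntrk2 was lost among the libraries of higher depth alone (log2 1.68, adjusted p = 0.0537). Ntm (log2 -0.96, adjusted p = 0.0114, without overlap) passed the edgeR test but not the 2-fold minimum. It was called with depth as a term (-1.03), among the libraries of higher depth alone (-1.14), and without acute 72 h replicate 3 (-1.03), acute 72 h replicate 4 (-1.07) or chronic 72 h replicate 2 (-1.09). Ngfr had the same mean of 74.0 CPM in both groups (log2 difference between -0.78 and 0.77).

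The late group was compared with the early one after each injury. From acute 24 h to acute 7 d 4 genes were called (2 higher, 2 lower), against 27% of all genes (17.8% higher and 9.24% lower), and 7 did not overlap, against 52.1% of all genes. The called genes were Ncam1 and Ntrk2, which rose, and Nes and Ntrk3, which fell, Nes by 2.42 (SE 0.26, edgeR adjusted p = 2.59e-07). Bdnf (log2 -0.98, adjusted p = 0.0283) and Ntm (log2 -0.95, adjusted p = 0.00640) passed the test but not the 2-fold minimum, so that the count was 6 with no fold minimum. From chronic 24 h to chronic 14 d 9 genes were called (5 higher, 4 lower), against 12.8% of all genes (6.65% higher and 6.11% lower), and 10 did not overlap, against 24.6% of all genes. Ntf3, Ngfr, Gfap, Mapt and Ntm rose, and Bdnf, Ntrk3, Nes and Ncam1 fell, Nes by 2.44 (SE 0.25, adjusted p = 4.90e-07). The study had already named Gfap, Ntm and Ngfr among the genes higher in recovered than in fibrotic mice, so these rises were known beforehand. The count was 9 with no fold minimum and 7 with depth as a term. The difference between the counts of the 2 injuries was not tested, and the times differ. Of the 9 called genes all but Nes moved towards their healthy level in the chronic step, and Nes passed it. Of these 9 only Ntf3, Ngfr and Ntrk3 were not called against healthy at 14 d.

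**Figure D4:**
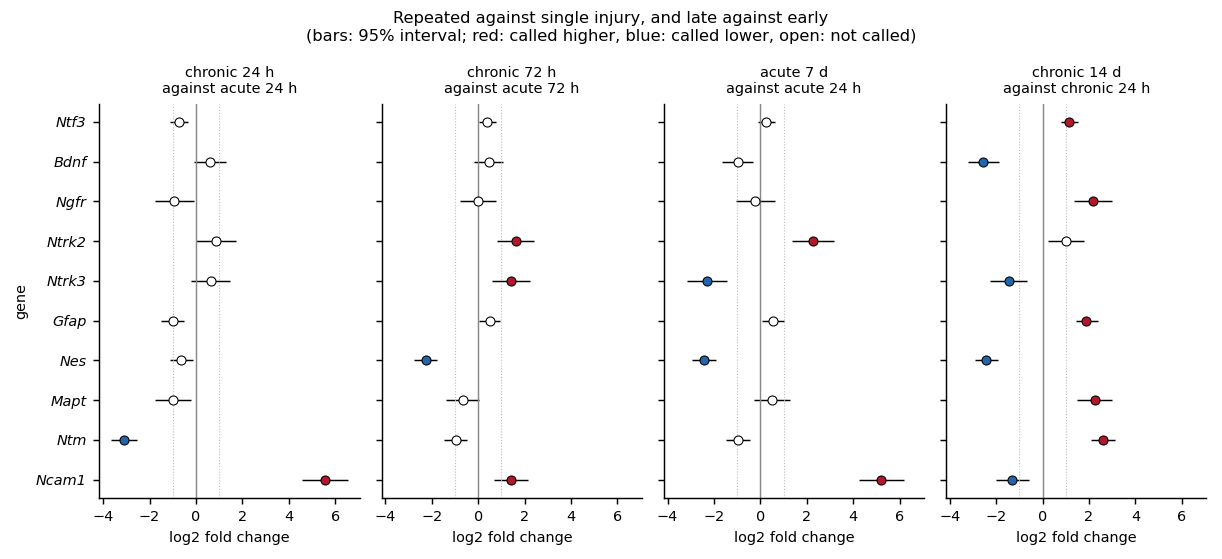
Log2 fold changes with 95% intervals for the chronic against the acute injury at 24 h and 72 h and for the late against the early group after each. Filled points were called (red higher, blue lower). Ncam1 stands apart at 24 h (5.56) and in the acute step (5.20), and 9 of 10 points are filled in the chronic step.

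Depth was uneven in the chronic groups and moved with some of these values. In chronic 24 h, Ncam1 was 94.1 and 106 CPM in the 2 libraries of lower depth and 257 and 202 CPM in the others. Ntrk3 was 13.5 and 18.4 CPM against 27.6 and 43.3 CPM, and Bdnf 52.9 and 85.4 CPM against 134 and 105 CPM. At chronic 72 h the lower-depth libraries were also below the others for Ncam1 (77.7 to 95.3 CPM against 148 to 167 CPM), Ntrk3 (6.43 to 9.33 against 9.48 to 14.6 CPM) and Nes (51.1 to 69.2 against 70.7 to 76.9 CPM). They were above the others for Ngfr (80.0 to 106 CPM against 34.8 to 74.8 CPM), Gfap (23.7 to 27.1 against 17.6 to 19.2 CPM) and Ntm (17.6 to 23.6 against 14.6 to 16.1 CPM). At chronic 14 d no library reached 9 M counts, whereas all healthy libraries did, so these 2 groups alone cannot separate depth from injury. With depth as a term in the model, no call of chronic 14 d against healthy was lost. That term rests on chronic 24 h and 72 h, the groups that held both depth classes. For the step from chronic 24 h to 14 d, the calls of Ncam1 (log2 -1.30, edgeR adjusted p = 0.0121) and Ntrk3 (log2 -1.46, adjusted p = 0.0117) were lost with depth as a term in the model (Ncam1 -0.66, adjusted p = 0.185, and Ntrk3 -0.91, adjusted p = 0.141). They were also lost among libraries of lower depth alone, a setting added after seeing the data (Ncam1 -0.52, adjusted p = 0.185, and Ntrk3 -0.72, adjusted p = 0.155). Ncam1 also lost its call without chronic 24 h replicate 3 (log2 -1.0, adjusted p = 0.0622) and Ntrk3 without chronic 24 h replicate 4 (log2 -1.03, adjusted p = 0.0846). The other 7 calls of that step were kept in both depth settings.

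**Figure D5:**
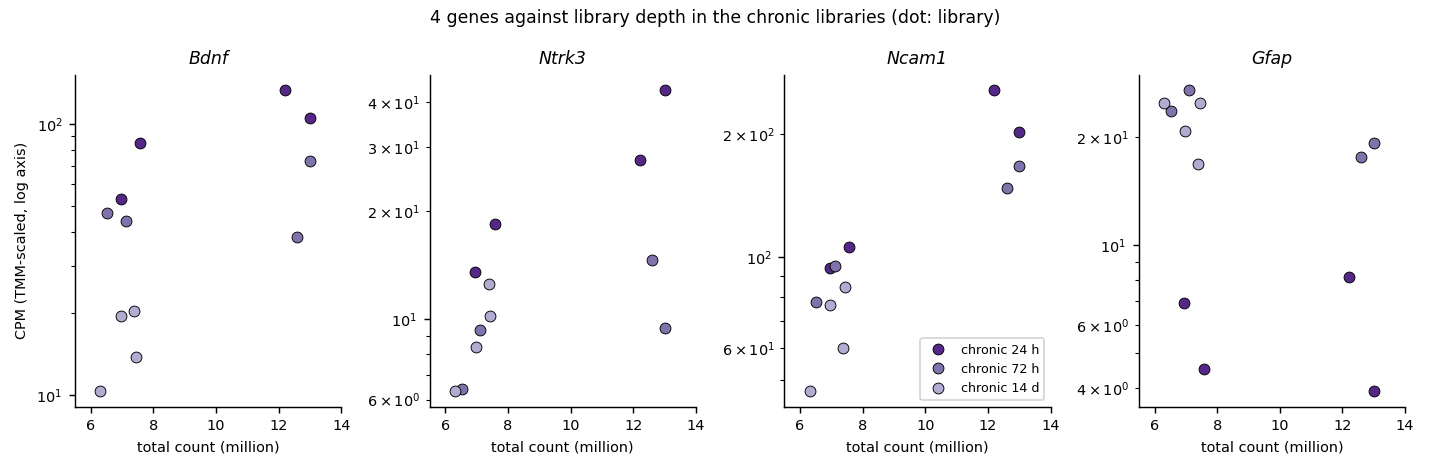
CPM on log axes of Bdnf, Ntrk3, Ncam1 and Gfap against total count in M for the 12 chronic libraries, 1 dot each. Within chronic 24 h the 2 libraries above 9 M counts lie above the other two for Bdnf, Ntrk3 and Ncam1, and the depth classes overlap for Gfap.

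Markers of other cells also moved between the groups. The macrophage list (10 of 10 tested) summed to 155 to 651 CPM in healthy, 4190 to 10800 CPM at acute 7 d, 551 to 3690 CPM at chronic 24 h and 816 to 2070 CPM at chronic 14 d. The cholangiocyte list (7 of 8 tested) summed to 56.9 to 107 CPM in healthy, 763 to 4800 CPM at acute 7 d and 563 to 1300 CPM at chronic 24 h. Nearly all of that sum was Spp1 (51.8 to 90.3, 717 to 4770 and 513 to 1260 CPM in the same groups), while the defining marker Krt19 had means of 0.839, 2.81 and 1.93 CPM. The mesothelial cell and portal fibroblast list (9 of 10 tested) summed to 127 to 188 CPM in healthy, 81.7 to 99.7 CPM at acute 24 h, 474 to 578 CPM at acute 7 d and 394 to 459 CPM at chronic 24 h. The T, NK and B cell list (8 of 9 tested) summed to 1.91 to 8.07 CPM in healthy, 21.4 to 39.2 CPM at acute 7 d and 30.4 to 59.1 CPM at chronic 14 d. The part of these cells in the rise of Ncam1 and Bdnf, and that of the falling stellate cell list in the falls of Gfap, Ngfr, Mapt and Ntm, was not tested.

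The remaining lists moved less evenly. The hepatocyte list (10 of 10 tested) summed to 677 to 4130 CPM in healthy and 151 to 397 CPM at acute 24 h. There 9 of 10 were called lower, against 12.5% of all genes. The sinusoidal endothelial list (10 of 10 tested) summed to 189 to 583 CPM in healthy and 71.4 to 255 CPM at chronic 24 h. The vascular smooth muscle list (8 of 8 tested) summed to 845 to 1140 CPM in healthy, 1350 to 1390 CPM at acute 24 h and 405 to 555 CPM at chronic 72 h. Much of that sum was Des, which is also in the stellate cell list (446 to 584, 861 to 1040 and 262 to 339 CPM in the same groups). In chronic 24 h 4 genes of the smooth muscle list were called higher and 0 lower. Of the stellate cell list, 8 of 12 were called lower and 1 higher in chronic 24 h. The shares of all genes there were 11.2% higher and 8.11% lower.

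The genes whose level was most like that of each of these genes over the 27 libraries were taken by Pearson's r of log2 CPM among 10292 or 10293 genes whose mean log2 CPM was 3 or more. These are descriptions, since the libraries share 7 groups and a depth pattern. Bdnf was most like Tnfaip6 (r = 0.968), Pim1 (0.959) and Plat (0.925). Ncam1 was most like Fam13c (0.964), Adamtsl1 (0.954) and Ltbp2 (0.950), Mapt like Ptger2 (0.951), Tln2 (0.949) and Adcy5 (0.938), and Ntm like Egfem1 (0.947), Rgs7 (0.920) and Nt5dc2 (0.914). Gfap was most like the stellate cell genes Colec11 (0.943) and Angptl6 (0.926) and like Clec14a (0.918).

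Nes was most like Kpnb1 (0.930), the intermediate filament gene Des (0.925), which is in the stellate cell and smooth muscle lists, and Cnn2 (0.916). Ntf3 was most like Tpst1 (0.914), Art3 (0.909) and Hnmt (0.898), and Ngfr like Arvcf (0.907), Dcdc2a (0.906) and Pygm (0.895). The 2 low receptor genes had weaker likenesses, Ntrk2 to Zfp423 (0.818), Ctsf (0.796) and Naaa (0.795), and Ntrk3 to Gfra2 (0.789), Telo2 (0.783) and Polr3d (0.776). With another prior count (0.5 in place of 2) the same 30 genes were found.

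For the 10 genes there were 60 steps between neighbouring groups, of which 8 were called. Each of Bdnf, Gfap, Nes and Mapt had 1 called step, with healthy on one side of it, and Ntm and Ncam1 had 2. Ntf3, Ngfr, Ntrk2 and Ntrk3 had none. Among these, the step of Ntf3 from chronic 24 h to acute 72 h passed the edgeR test below the 2-fold minimum (log2 0.62, adjusted p = 0.0271), and that of Ntrk3 from healthy to chronic 14 d was called in the settings given above.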

How the data were processed

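Messenger RNA of sorted hepatic stellate cells was measured in 27 libraries of 7 groups. The authors deposited raw gene counts, 1 column per library, from single-end reads aligned with STAR to GRCm38, with StringTie, per the submitters' processing notes. Tool versions, strandedness and the way counts were made are not given in the sources used here. Antisense reads can therefore not be separated. Totals were 6.31 to 13.1 M counts (M, mega), and 8 libraries were under 9 M. Floors (3 counts) cover counting error only, whereas the 95% intervals of fold changes rest on the SE of the model and so include the spread between libraries.

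From the counts, TMM-scaled CPM and log2 CPM (prior count 2) were computed. The log2 fold changes came from the edgeR model, in which that prior count was not set. Of 53379 gene IDs 53274 had a GENCODE M21 symbol. One edgeR 4.0.16 quasi-likelihood model (R 4.3.3) with a mean per group was fitted to 18758 genes kept by filterByExpr, with Benjamini-Hochberg adjustment. Calls were made at an adjusted p under 0.05 together with more than a 2-fold change. P-values measure the spread between libraries. The SE is the log2 fold change divided by the root of F. The scripts were tested on simulated counts.

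The 10 genes, all lists and all naming rules were chosen with earlier results of these data known. Of each list, up to 4 genes called in chronic 24 h against healthy whose mean log2 CPM was 3 or more were named by size of change, together with the ligands and receptors, and for each of the 10 genes the 3 most like it by Pearson's r. Some genes of the lists are not reported here. The marker lists cover stellate, Schwann, neuron, hepatocyte, macrophage, endothelial, cholangiocyte, mesothelial and portal fibroblast, smooth muscle and lymphoid cells. Alternatives were DESeq2 1.42.0 (test and size factors), unscaled libraries, other filters and thresholds, a test against a 2-fold minimum, 2-group fits, depth, a replicate block and leaving out each library. Promoter windows came from RefSeq (GRCm38.p6).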

Additional observations from a re-analysis of the deposited data

Results flagged for a closer look

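Ntrk2 in acute 72 h had 1 library far from the others. Replicate 4 stood at 3.18 CPM, and the nearest of the other libraries at 1.73 CPM, a gap of 0.843 of the range. Of the 60 groups of 4 libraries examined for the 10 genes this was 1, and chance alone sets about 1 in 20 such groups apart.

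The effect of injury against healthy was called different between the repeated and the single course for 2 genes at 24 h and 4 genes at 72 h, by the edgeR contrast of the 2 injured groups. At 24 h the difference was 5.56 for Ncam1 and -3.10 for Ntm on the log2 scale. At 72 h it was -2.27 for Nes, 1.61 for Ntrk2, 1.42 for Ncam1 and 1.41 for Ntrk3. Ncam1 was called at both times. Ntm passed the test at both (-0.96 at 72 h, edgeR adjusted p = 0.0114) and was under the 2-fold minimum at 72 h.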

How the results depend on the processing

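Of 100 values (10 genes in 10 comparisons) 64 were called, and no called value changed sign in any alternative run. In 45 of the 64 the call was kept in every alternative run, and in 19 it was lost at least once. Against a 2-fold minimum, the counts of genes called fell to 5 at acute 24 h, 4 at acute 72 h and 5 at chronic 72 h against healthy, to 1 for chronic 72 h against acute 72 h, and to 2 for neighbouring groups. Other counts fell by a smaller share or stayed the same. At chronic 14 d against healthy Bdnf (adjusted p = 0.203 in that edgeR test) and Gfap (0.691) lost their calls, as did Nes at acute 7 d (0.434). From chronic 24 h to chronic 14 d Ntf3 (0.634), Ntrk3 (0.453) and Ncam1 (0.621) lost theirs. The construction of that test asks for more than a 2-fold change. For chronic 24 h against acute 24 h the count was 4 with no fold minimum and 4 with depth as a term, where the cause was not tested.

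When each library was left out in turn, the counts against healthy ranged from 8 to 9 at acute 24 h, 7 to 7 at acute 72 h and acute 7 d, 8 to 8 at chronic 24 h, 7 to 8 at chronic 72 h and 6 to 7 at chronic 14 d. They ranged from 4 to 6 for acute 7 d against acute 24 h, 8 to 9 for chronic 14 d against chronic 24 h, 2 to 6 for chronic 24 h against acute 24 h and 3 to 5 for chronic 72 h against acute 72 h.

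The values that changed sign were all uncalled. Ngfr in chronic 72 h against acute 72 h was 0.04 with DESeq2 size factors, 0.03 with library size alone, 0.04 in DESeq2, 0.02 with no filter, 0.03 in the 2-group fit, and -0.23 to 0.23 without single libraries. Ntrk3 at acute 72 h against healthy was 0.01 with library size alone and -0.32 to 0.13 without single libraries, and at acute 7 d -0.66 to 0.04. Ntrk2 at chronic 72 h against healthy was -0.01 with a mean of at least 1 CPM and -0.15 to 0.34 without single libraries, and at chronic 14 d -0.01 to 0.65. The Ngfr log2 fold change in acute 7 d against acute 24 h was -0.59 to 0.18 without single libraries.

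Replicate numbers did not pair the libraries, with correlations of same-numbered deviations from -0.17 to 0.17. With the replicate block 1 call was gained, Bdnf in acute 7 d against acute 24 h (log2 -1.07, edgeR adjusted p = 0.0276), so that 5 genes in place of 4 were called there. Low counts limit Ntrk2 and Ntrk3, whose smallest library counts were 6 and 13.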

Other observations

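Some groups held pairs of libraries that stood apart in several of the 10 genes, described here as values without a test. In acute 72 h, replicates 1 and 2 had 102 and 106 CPM of Ngfr against 42.8 and 44.8 CPM in replicates 3 and 4. In the same libraries Nes was at 435 and 432 CPM against 213 and 209 CPM, and Mapt at 39.0 and 32.0 CPM against 12.4 and 13.9 CPM. In acute 7 d, replicates 1 and 2 had 24.6 and 27.7 CPM of Ngfr and 15.9 and 19.7 CPM of Bdnf, against 79.7 and 71.0 CPM and 44.3 and 45.6 CPM in replicates 3 and 4.

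Egr2, a transcription factor gene of Schwann cells that also belongs to the immediate early genes, was by far the highest of the glial list. Its mean was 709 CPM in healthy, 883 CPM at acute 24 h, 1400 CPM at chronic 24 h and 987 CPM at chronic 14 d.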
